A study of Mus musculus with 32 samples.

Results

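Igf2bp1, Igf2bp2 and Igf2bp3, the 3 genes of the IGF2BP family, were examined together with Lin28b and Hmga2, genes active in fetal tissue and again in many cancers. These 5 genes were taken by their symbols from both tables of gene-level RNA-seq results, of 26560 genes in the Lin- table and 25887 in the CD11b+ table, and their IGF2BP3 binding sites were taken by Ensembl gene ID. Binding had been measured by eCLIP, in which protein is crosslinked to RNA by UV light, immunoprecipitated with an antibody to IGF2BP3, and the RNA attached to it is sequenced. Lin- cells were mouse bone marrow cells depleted of lineage-marked cells and transduced in culture with an MLL-Af4 retrovirus under G418 selection, whereas CD11b+ cells were selected with an antibody to CD11b from splenic tumors of mice with MLL-Af4 leukemia. The names of the CD11b+ eCLIP libraries begin with an abbreviation that also stands for bone marrow, so the tissue of those libraries could not be settled. There were 6 Lin- eCLIP libraries, of which 3 were biological and 3 technical, and 4 CD11b+ eCLIP libraries, of which 2 were biological and 2 technical, each with a size-matched input library. RNA-seq covered wild type (WT) and Igf2bp3 knockout (I3KO) cells, with 3 libraries for each genotype in each cell type. The knockout allele was a germline deletion that arose from a floxed Igf2bp3 allele crossed to Vav1-Cre mice, and all RNA-seq groups carried MLL-Af4. The eCLIP cells of both types were WT for Igf2bp3 and also carried MLL-Af4.

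IGF2BP proteins bind mRNA through KH and RRM domains and affect its stability, translation and localisation. LIN28B blocks the maturation of let-7 microRNAs, and let-7 in turn represses mRNAs that carry its seed match, Hmga2 and Lin28b among the best known. HMGA2 is a chromatin protein with AT-hook domains that is abundant in fetal stem cells. The 5 genes are thus commonly grouped as an oncofetal, let-7-linked set, and IGF2BP3 is the member that the eCLIP antibody recognises.

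IGF2BP3 peaks were found on the RNA of Igf2bp3 itself and of Hmga2, while Igf2bp1, Igf2bp2 and Lin28b had 0 peaks in each of the 10 eCLIP libraries, before as well as after the input filter. The genes without a peak are on the minus strand at chr11:95957163-96005940 (Igf2bp1), chr16:22059009-22163299 (Igf2bp2) and chr10:45376620-45486395 (Lin28b). Lack of a called peak does not show that an RNA is unbound, since RNAs at low levels seldom had one. The 22 filtered peaks on the 2 genes with peaks merged into 12 sites, 6 on each gene, and all 12 lay mostly in introns. The sequences are shown first, because many of the sites were simple repeats. All are given 5′ to 3′ on the transcript strand from GRCm38, with capitals marking ACACAC or CACACA (a CA repeat) and TGTGTG or GTGTGT (a TG repeat), each searched on the transcript strand only. The sites that recurred between libraries on Igf2bp3 were sites 1, 2, 3 and 6, and site 5 is shown because it reached a splice site.
Igf2bp3 site 1: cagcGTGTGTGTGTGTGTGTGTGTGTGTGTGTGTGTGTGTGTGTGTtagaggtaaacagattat
Igf2bp3 site 2: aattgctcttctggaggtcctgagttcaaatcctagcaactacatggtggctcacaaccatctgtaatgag
Igf2bp3 site 3: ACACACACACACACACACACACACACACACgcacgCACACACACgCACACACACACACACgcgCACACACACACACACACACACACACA
Igf2bp3 site 5: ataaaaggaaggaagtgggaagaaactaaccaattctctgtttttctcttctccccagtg
Igf2bp3 site 6: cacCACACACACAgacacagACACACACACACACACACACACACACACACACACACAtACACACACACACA
From Hmga2, site 1 is shown as the only one found in more than 1 library, site 3 for its CA repeat and site 6 as the only one seen in CD11b+ cells.
Hmga2 site 1: gcggcgtggctcggggggggggca
Hmga2 site 3: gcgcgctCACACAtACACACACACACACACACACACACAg
Hmga2 site 6: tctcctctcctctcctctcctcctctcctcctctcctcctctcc

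Site 1 of Igf2bp3 was a TG repeat, with an unbroken run of 42 alternating bases, and sites 3 and 6 were CA repeats, with longest runs of 30 and 36 bases. Site 6 of Hmga2 was a pyrimidine-rich repeat, and its site 1 was rich in G. Of the 12 sites, 4 held the CA repeat and 3 others held the TG repeat, against 11.6% and 15.6% of all 32259 merged sites of the series. Over the 26304 intronic merged sites the shares were 13.4% and 16.9%, and they were not taken for long genes alone. The zipcode sequence ACACCC was in 0 of the 12 sites and in 1.51% of all merged sites. The short motif GGAC, in which m6A is often placed, was in 0 and in 11.1%, and the let-7 seed match CTACCTC in 0 and in 0.335%. The TG repeat was added to the search after the sequences had been read. Sites of 1 gene share a transcript and were seen in overlapping sets of libraries, so these shares are descriptions.

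At least 50% of the bases were soft-masked, that is, marked as repeats in lower case in the RefSeq genome, in 11 of the 12 sites. The exception was site 1 of Hmga2, with 0% soft-masked. Over all merged sites the share that was at least 50% soft-masked was 38.2%, and over the 6278 intronic sites in genes of at least 100 kb, the size class of Igf2bp3 and Hmga2, it was 68.3%. Removal of repeat sequence is described for the RNA-seq reads and not for the eCLIP reads. Whether reads placed in such repeats came from these genes was not tested.

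**Figure D1:**
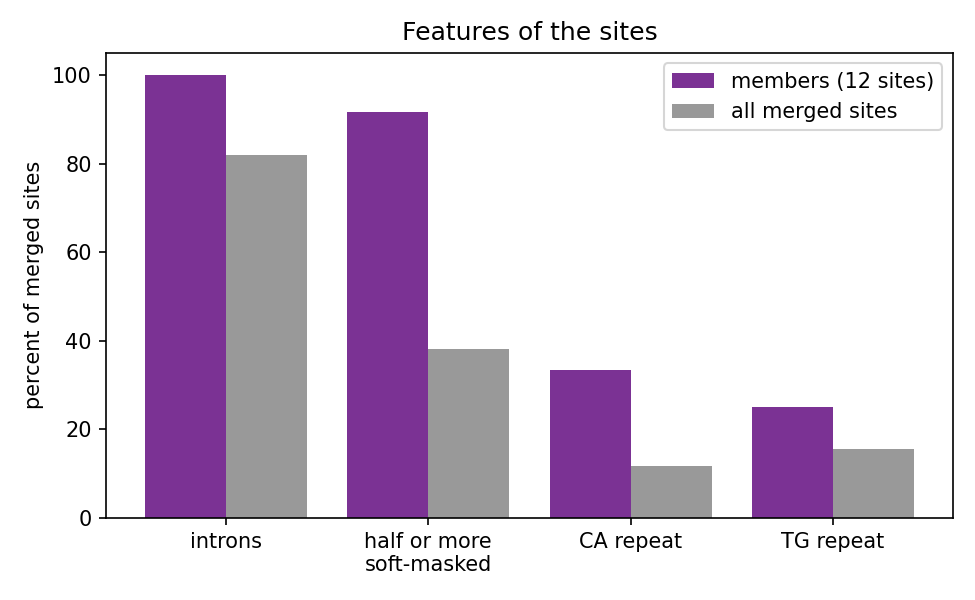
Percent of merged IGF2BP3 sites (y axis) that lie mostly in introns, are at least 50% soft-masked, or hold a CA or a TG repeat, for the 12 sites on Igf2bp3 and Hmga2 (purple) and for all merged sites (grey). The soft-masked share is 91.7% for the members and 38.2% for all merged sites.

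Igf2bp3 is on the minus strand at chr6:49085223-49214957, spans 129.7 kb and has 15 exons. Its 3 most recurrent sites were all in intron 2, which is 44748 bases long and directly follows exon 2 at chr6:49213267-49213327, the exon that loxP sites flank in the floxed allele. Site 1 (chr6:49200548-49200611) was found in 4 of 4 CD11b+ libraries and 0 of 6 Lin- libraries. The number at the end of each peak name, read here as the reads in the peak although no header defines it, was 9 and 31 at site 1 in the biological CD11b+ libraries and 15 and 27 in the technical ones. Site 1 was thus present in each CD11b+ library and had no peak in any Lin- library, also before the input filter.

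Site 2 (chr6:49199898-49199968) showed the opposite pattern, 579 bases further along the transcript. It held 8 reads in Lin- replicate 2, 7 in replicate 3 and 6 in technical replicate 5, and no CD11b+ library had a peak there. It carried neither repeat, although all of its bases were soft-masked. Site 3 (chr6:49196884-49196972), 2925 bases beyond site 2, was the only one of the 12 found in both cell types. It held 5, 4 and 4 reads in Lin- replicates 2, 3 and 5 and 19 reads in CD11b+ replicate 2. After filtering, the Lin- libraries that had site 2 were those that had site 3.

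Sites 1 and 2 were singled out after their values were seen, so their split between cell types is a description. Of the 1752 merged sites found in every CD11b+ library, 34.6% were in no Lin- library, and of the 1578 found in 3 Lin- libraries, 61.7% were in no CD11b+ library. A split of this kind was therefore common in the series.

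Of the other sites on Igf2bp3, site 6 (chr6:49116253-49116323) in intron 6 held 12 reads in CD11b+ replicate 2 and 10 in technical replicate 4. Site 4 (chr6:49157399-49157448), a TG repeat in intron 3, held 7 reads in CD11b+ technical replicate 3 alone. Site 5 (chr6:49134757-49134816) held 10 reads in Lin- replicate 1 alone, where no other site on Igf2bp3 was seen. It covered the 3′ part of intron 4, an intron of 88 bases, through its pyrimidine-rich tract and 3′ splice site, and ended 2 bases into exon 5.

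Site 5 was 1 of the 12 sites that crossed a splice site, against 34.8% of merged sites in genes with introns. Most of the others were deep in introns, with 10 of the 12 more than 500 bases from the nearest splice site and a median distance of 14028 bases. The median was 99 bases over all 26304 intronic sites and 4288 bases over those in genes of at least 100 kb, of which 73% were more than 500 bases away. Both members with peaks have long introns. All 12 sites were intronic where 82.0% of all merged sites were, and none was in a 3′ UTR, where 5.44% of all merged sites were.

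**Figure D2:**
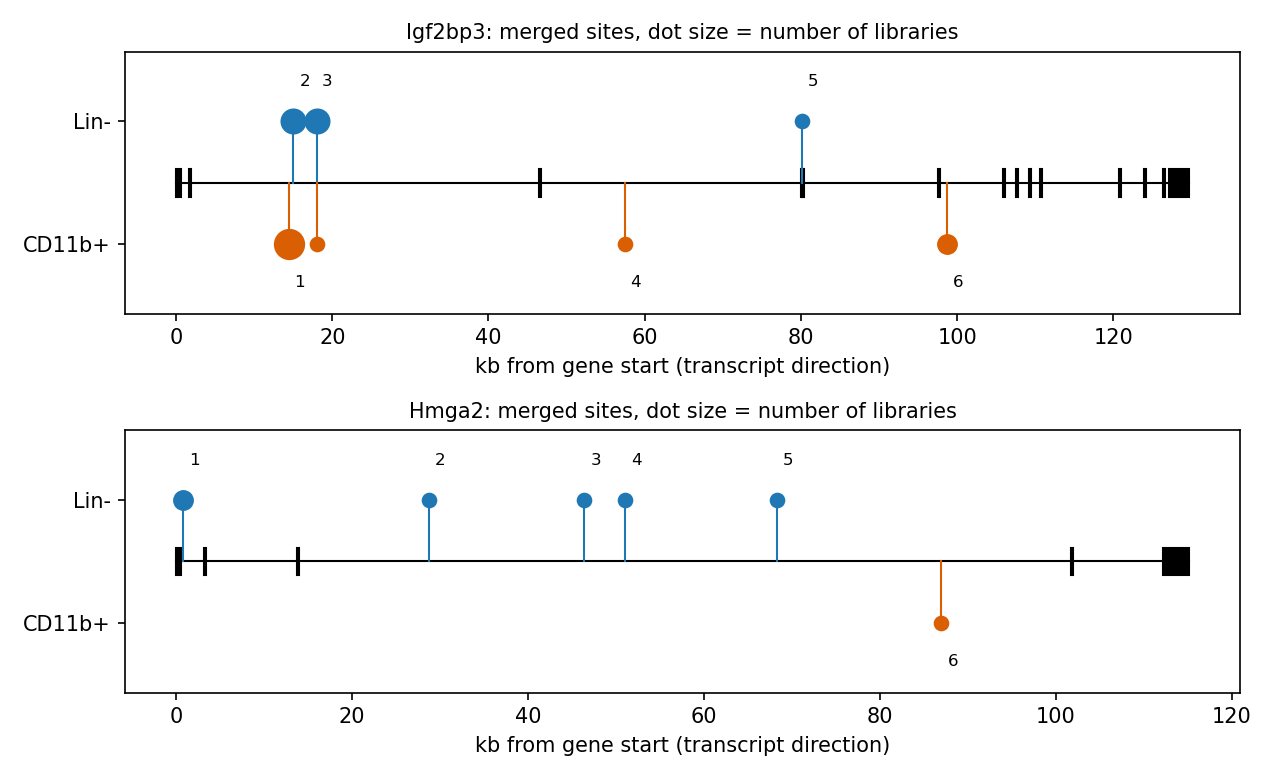
Merged IGF2BP3 sites along Igf2bp3 and Hmga2, with distance from the gene start in kb in the direction of the transcript on the x axis and exons as black boxes. Sites seen in Lin- libraries point up and those in CD11b+ libraries point down, dot size gives the number of libraries, and sites 1, 2 and 3 of Igf2bp3 cluster in the long intron 2.

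Hmga2 is on the minus strand at chr10:120361275-120476469 and spans 115.2 kb. Site 1 (chr10:120475613-120475636) was in intron 1, 316 bases from the end of exon 1, with 5 reads in Lin- replicate 1 and 14 in replicate 2. The other 5 sites were all in intron 3, which is 87963 bases long, and each was found in 1 library with 3 to 5 reads, 3 being the fewest in any eCLIP peak of the series. Sites 2, 3 (chr10:120430017-120430056) and 4 came from Lin- replicate 2, the library with the most reads in filtered peaks, and site 5 from technical replicate 5. Site 6 (chr10:120389459-120389502), with 3 reads in CD11b+ replicate 2, was the only Hmga2 peak in CD11b+ cells. Binding of Hmga2 thus rested mainly on Lin- replicates 1 and 2, while Lin- replicate 3 had 0 peaks. Over the series, 57.8% of merged sites were found in 1 library of 10.

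**Figure D3:**
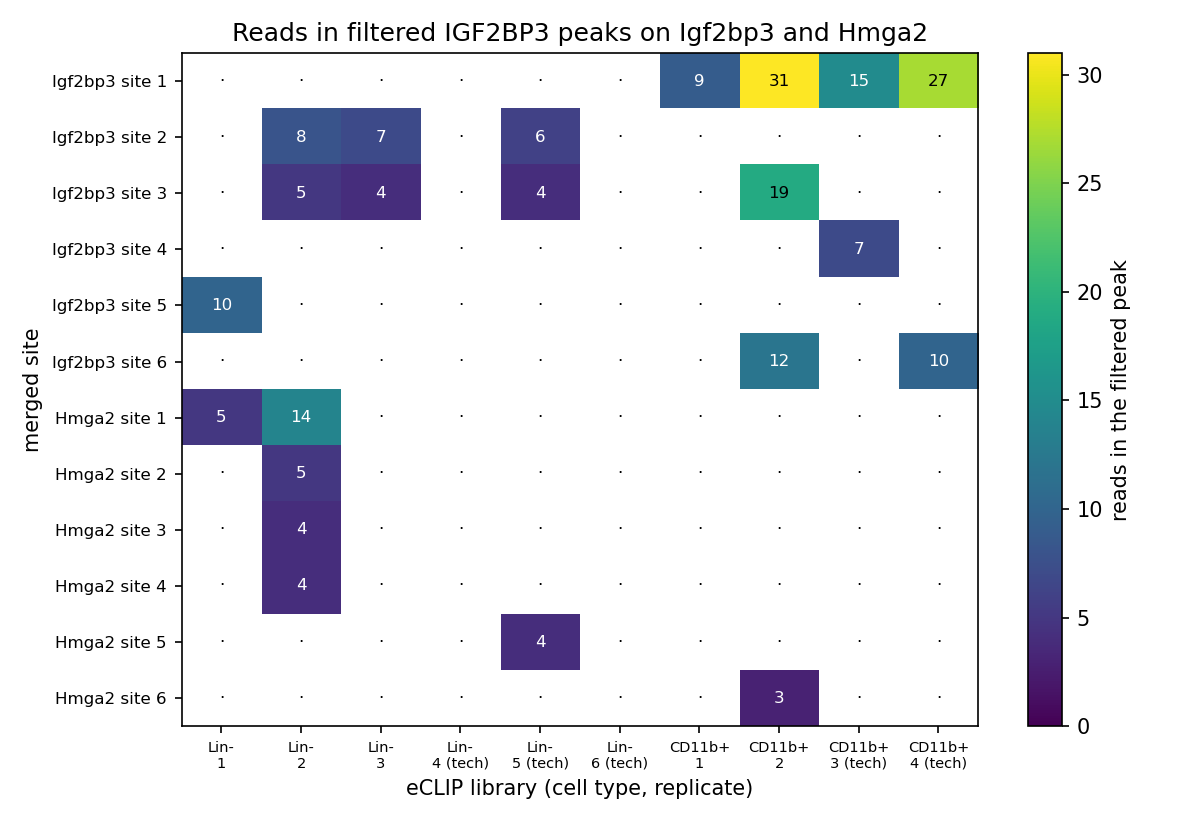
Number of reads in the filtered peak (colour and printed value) for each of the 12 merged sites (rows) in each of the 10 eCLIP libraries (columns, with technical libraries marked tech). Dots mark libraries without a filtered peak, and the 4 CD11b+ libraries hold 9 to 31 reads at Igf2bp3 site 1.

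Scaled to 10000 filtered peaks of the library, peaks on Igf2bp3 came to 1.36, 1.99 and 2.3 in the biological Lin- libraries and to 1.17 and 2.98 in the biological CD11b+ libraries. The means were 1.88 ± 0.481 (SD, n = 3) and 2.08 ± 1.28 (SD, n = 2), and the groups overlapped (two-sided exact permutation test p = 1, adjusted p = 1 over the 2 members with peaks). Without Lin- replicate 1 the difference, Lin- minus CD11b+, changed sign from -0.194 to 0.0685, and without CD11b+ replicate 2 to 0.711. For Hmga2 the values were 1.36, 3.98 and 0 in Lin- cells and 0 and 0.995 in CD11b+ cells. The means were 1.78 ± 2.02 (SD, n = 3) and 0.497 ± 0.703 (SD, n = 2), which also overlapped (two-sided exact permutation test p = 0.5, adjusted p = 1). Without Lin- replicate 2 the Hmga2 difference fell from 1.28 to 0.182. With 10 arrangements of these libraries the smallest p possible was 0.1, so no difference between cell types could have passed 0.05.

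The size-matched inputs held 1 peak on the 5 genes. It lay at chr6:49196884-49196945 in the input of Lin- technical replicate 4, over the CA repeat of Igf2bp3 site 3, with 4 reads. The eCLIP library of the same number had a peak of 5 reads at chr6:49196895-49196978, the 1 peak of the members' 23 that the input filter removed. The filter thus took away a peak at a site that stayed in 4 other libraries.

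The RNA levels of the 5 genes are given as the authors' mean normalized count over WT and I3KO libraries together, so they carry no spread between libraries and no comparison of genotypes. The 2 tables were normalized separately, and values were therefore also set per 1000000, relative to the sum of each table's means. In Lin- cells the means were 2041 for Igf2bp3, 612 for Hmga2, 175 for Lin28b, 93.2 for Igf2bp2 and 0.837 for Igf2bp1. In CD11b+ cells they were 1355, 73.1, 7.11, 29.3 and 0.995 in the same order of genes. Igf2bp3 was the most abundant of the 5 in both cell types and Igf2bp1 was close to absent in both.

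Per 1000000 of the table's total, Igf2bp3 stood at 76 in Lin- and 67.2 in CD11b+ cells, at the 86.7 percentile of both tables. Hmga2 stood at 22.8 and 3.62, and Lin28b at 6.51 and 0.353. Igf2bp2 stood at 3.47 and 1.45, and Igf2bp1 at 0.0311 and 0.0493. Hmga2, Lin28b and Igf2bp2 thus had higher values in the Lin- table, while Igf2bp3 had similar values in both and Igf2bp1 was close to absent in both. Per exonic kb, the scale on which genes can be set against each other, the order in Lin- cells was Igf2bp3 (17.5), Hmga2 (5.98), Lin28b (1.21), Igf2bp2 (0.858) and Igf2bp1 (0.00372). In CD11b+ cells it was Igf2bp3 (15.5), Hmga2 (0.951), Igf2bp2 (0.359), Lin28b (0.0653) and Igf2bp1 (0.00588). Without a spread between libraries, whether neighbours in these orders differ could not be tested. In these bulk samples, fewer cells that express a gene and less RNA per cell cannot be told apart.

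**Figure D4:**
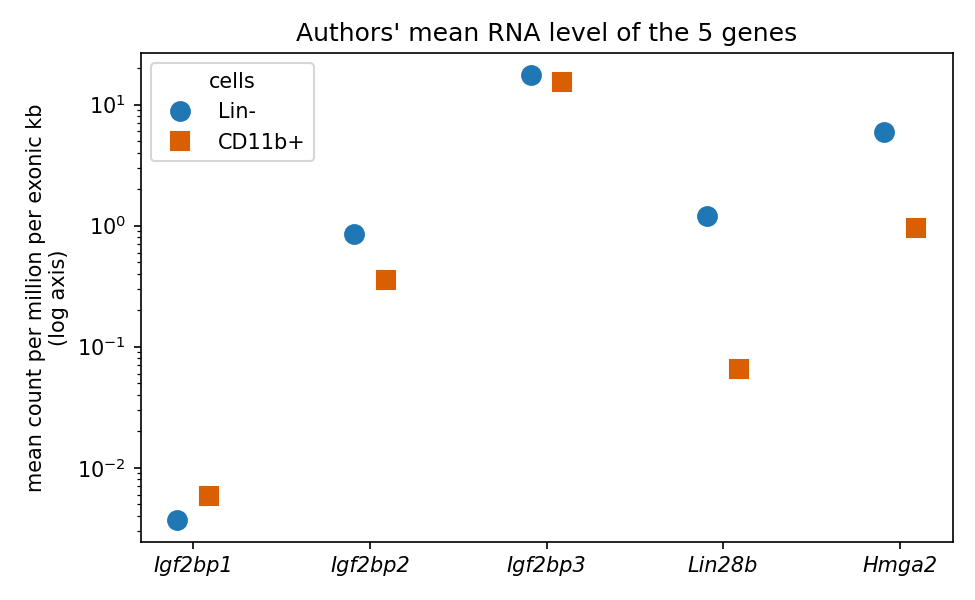
Mean RNA level of the 5 genes (x axis) as the authors' mean normalized count per 1000000 of the table's total and per kb of exon (y axis, log scale), in Lin- cells (blue circles) and CD11b+ cells (orange squares). Each symbol is 1 mean over WT and I3KO libraries with no error available, and Igf2bp3 is at 17.5 and 15.5.

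Binding was read against RNA level, since a scarce RNA yields few reads. The RNA-seq libraries were poly(A)-selected, whereas the sites on the members lay in introns. Genes matched for level here therefore need not be matched for intronic RNA. A filtered peak in any library was present on 26.5% of the genes in the Lin- table and 25.6% of those in the CD11b+ table, and on 2 of the 5 members in each cell type. Among genes within 2-fold of the mean of Igf2bp3, 72.9% had a peak in Lin- and 61.1% in CD11b+ cells. That mean includes the I3KO libraries, in which exon 2 of this gene is deleted, whereas eCLIP was done in WT cells. For Igf2bp3 the matched level therefore need not be the level in the eCLIP cells. For Hmga2 the same shares were 37.3% and 12.6%. For the 3 members without a peak they were 12.8% and 7.91% (Lin28b), 8.14% and 9.02% (Igf2bp2) and 3.29% and 6.33% (Igf2bp1). Most genes at the level of those 3 thus had no peak either. Among genes with any site, Igf2bp3 and Hmga2, with 6 each, were in the 16% that had as many or more, the median being 2. This rank was not matched for gene length, and 5 of the 6 Hmga2 sites were each found in 1 library only.

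The 3′ UTRs of the 5 genes hold the let-7 seed match CTACCTC, which pairs with bases 2 to 8 of let-7. The mature let-7a-5p is shown from RefSeq with its seed in capitals, followed by a match from each of 4 members in DNA letters, with the match in capitals.
let-7a-5p: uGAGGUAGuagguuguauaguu
Hmga2 match 1: acattcaatttCTACCTCagcatcagttg
Lin28b match 1: gggcgggaagtCTACCTCatgcaagcaca
Igf2bp1 match 1: tgcgaagtaaaCTACCTCaaggtgtgaag
Igf2bp3 match 1: tttttactcaaCTACCTCaggtattcagt
The matches shown lie on the minus strand at chr10:120364225-120364231 (Hmga2), chr10:45381023-45381029 (Lin28b), chr11:95961779-95961785 (Igf2bp1) and chr6:49086788-49086794 (Igf2bp3). The longest annotated 3′ UTRs of Hmga2, Lin28b and Igf2bp1 held 4 matches each, a number that 12 of 20983 genes with a 3′ UTR reached or passed, these 3 included. These UTRs were 3014, 4445 and 6337 bases long, and the counts were not scaled to length. Igf2bp2 and Igf2bp3 held 1 each, and 9.02% of genes held at least 1. The 8 let-7 family members listed in RefSeq share this seed. No peak in any eCLIP or input library, filtered or not, touched the 3′ UTR of any of the 5 genes, so no peak covered a seed match. For Igf2bp1, Igf2bp2 and Lin28b, which had no peak at all, this outcome was fixed. For Hmga2 and Igf2bp3 peaks were called elsewhere on the gene, but only 5.44% of all merged sites lay mostly in 3′ UTRs. With so few sites, the lack of 3′ UTR peaks is a description.

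Of 13 other genes of the let-7 and oncofetal group, 6 had a filtered peak in Lin- and 8 in CD11b+ cells, where the tables listed 12 and 11 of them. Over all genes in the tables the shares with a peak were 26.5% and 25.6%, and the listed genes were not matched for RNA level. Hmga1, the paralog of Hmga2, had 10 peaks over 6 of 6 Lin- libraries and 7 over 4 of 4 CD11b+ libraries, at mean counts of 7005 and 7753. Arid3a, a DNA-binding protein, had 4 and 28 peaks at mean counts of 3778 and 4537. Lin28a, the paralog of Lin28b, had 0 peaks in Lin- and 1 in CD11b+ cells, at mean counts of 90.9 and 809. Tut4 and Tut7 are the terminal uridylyltransferases that act with LIN28 proteins on let-7 precursors. Tut4 had 8 peaks in Lin- and 3 in CD11b+ cells, at mean counts of 3341 and 75.1. Tut7 had 6 and 6, at mean counts of 2851 and 2826. Peak counts in this list are totals over 6 Lin- and 4 CD11b+ libraries and were not scaled to depth. Trim71, H19, Mycn and Plagl1 had 0 peaks in both cell types, as did Igf2, the mRNA for which the family was named, which neither table listed.

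Of 7 proteins known to share mRNPs with IGF2BP proteins, 7 of their mRNAs had a filtered peak in Lin- and 5 in CD11b+ cells. Hnrnpu had 74 and 20 peaks, Pabpc1 47 and 27 and Dhx9 45 and 9, with Pabpc1 also called in 3 Lin- inputs and 1 CD11b+ input. Their mean counts were 30283 and 11217 (Hnrnpu), 67651 and 28994 (Pabpc1) and 9700 and 4084 (Dhx9). All peak counts here are totals over 6 Lin- and 4 CD11b+ libraries, technical ones included. They were not scaled to depth, so they give no comparison of cell types. Elavl1, which encodes the RNA-binding protein HuR, had 8 peaks over 6 of 6 Lin- libraries and 0 in CD11b+ cells. It was also called in 1 Lin- input. Ybx1 had 8 and 0 peaks. Mean counts in Lin- and CD11b+ cells were 3470 and 1593 for Elavl1 and 22122 and 14369 for Ybx1. The mean counts of the 7 genes ran from 1688 (Matr3) to 67651 (Pabpc1) in Lin- cells, against 2041 for Igf2bp3, the most abundant member. Over all genes the shares with a peak were 26.5% and 25.6%, and among genes within 2-fold of Igf2bp3 they were 72.9% and 61.1%.

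Igf2bp3 was the 1 member with at least 10 filtered peaks, 15 in all, and its peak counts over the 10 libraries were, among 2068 other genes, closely like those of Cox4i1 (Pearson r = 0.924) and Fstl4 (r = 0.924), which are 2 of the 3 most similar. These are correlations of log2 values over libraries of 2 cell types and of differing depth, from 10 peaks on each of these genes, and are given as a description.

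The libraries held 4040 to 10054 filtered peaks and 35663 to 233695 reads in them, and inputs had 217 to 1885 peaks. The progenitor markers Kit, Cd34 and Flt3 stood at 260, 337 and 350 per 1000000 in the Lin- table and 33.4, 64 and 19.3 in the CD11b+ table. Among myeloid markers, Mpo stood at 3767 and 4167 and Csf1r at 294 and 744. Itgam, which encodes CD11b itself, stood at only 0.841 per 1000000 in the CD11b+ table and was not listed in the Lin- table, so this marker did not match the selection. Ly6g stood at 0.568 and 5.34, the B-lineage marker Cd79a at 0.215 and 7.23, and the T-cell marker Cd3e at 0.279 in CD11b+ cells. Hba-a1, a hemoglobin gene, stood at 0.218 in Lin- and 62.8 in CD11b+ cells. The part of these cell-type differences in the levels of Hmga2, Lin28b and Igf2bp2 was not tested.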

How the data were processed

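Libraries and groups followed the labels: IGF2BP3 eCLIP (6 Lin-, 4 CD11b+), size-matched inputs and RNA-seq of WT and I3KO cells. Peaks had been called by the authors with CLIPper on mm10, whose p-value is deposited with each peak, and filtered on the inputs; UMI duplicates had been removed per the file headers. RNA-seq reads had been mapped with STAR 2.5.3a, per the submitters' processing notes. Each deposited gene table holds the authors' mean normalized count with their fold changes, p-values and peak marks, of which the mean alone was used. The 2 tables were normalized separately. There were no per-sample expression columns.

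Filtered peaks were assigned to genes by the Ensembl ID in their name. Peaks of all 10 libraries that shared at least 1 base on a strand were merged into sites, each placed by its largest overlap with the exons, UTRs or introns of GENCODE M21 (basic set). Sequences came from RefSeq GRCm38.p6, the same assembly as mm10, and positions are counted from 1. Library numbers and peak counts set the precision, and technical libraries were not counted as replicates. Peaks per 10000 were compared over biological libraries by a two-sided exact permutation test. The labels do not say that biological libraries came from separate animals, so p-values cover the spread between these libraries. The 5 genes and the gene lists were chosen with earlier results of these data known. Named genes were the 5 members, both lists and the 3 genes with the most similar peak counts. Of the genes with similar counts and the cell type markers, 3 are not reported here. Scripts were tested on simulated data and ran in Python 3.11.15 with pandas 2.3.3 and SciPy 1.17.1. Alternatives covered the input filter, the CLIPper p-value, the library set, the scale and the gene assignment; the TG repeat, soft-masking and reads per 1000000 were added after the data had been seen.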

Additional observations from a re-analysis of the deposited data

Results flagged for a closer look

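Among the 4 groups of libraries with any peak on a member, 1 library stood apart from its group. Hmga2 had 0.995 filtered peaks per 10000 in CD11b+ replicate 2 and 0 in the other 3 CD11b+ libraries, so that this library's gap to its nearest neighbour was the whole range of the group. The value is 1 peak of 3 reads. The rule is set to flag about 1 in 20 groups of normally distributed values. A group with a peak in only 1 library is always flagged, so that rate does not hold for counts this sparse.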

How the results depend on the processing

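In Lin- cells 2 of the 5 genes had a filtered peak under each of the 8 alternatives. In CD11b+ cells the count fell to 1 when a peak was required in at least 2 biological libraries, and again at a CLIPper p under 0.001, since the Hmga2 peak of CD11b+ replicate 2 then dropped out; leaving out 1 biological library gave 1 to 2, the 1 being without CD11b+ replicate 2. The difference in peak yield for Igf2bp3 ranged from -1.1 to 0.711 per 10000 peaks when single libraries were left out, changing sign without Lin- replicate 1 (0.0685) and without CD11b+ replicate 2 (0.711), and for Hmga2 it ranged from 0.182 to 2.17. With a replicate block on the shared numbers 1 and 2, the differences were -0.404 and 2.17, and were not tested. Deviations of same-numbered libraries correlated at -0.0069 and 0.0418 over 2081 genes. The deviations of the 2 CD11b+ libraries from their common mean mirror each other, so these correlations are not independent. Whether same-numbered libraries shared more than a number could not be settled from these values. In reads per 1000000, a scale chosen after seeing the data, the differences were -124 and 49.4. At a CLIPper p under 0.001 the Igf2bp3 difference was -1.21, and with technical libraries counted alike it was -0.949. With so few biological libraries no alternative restricted to them could reach a p under 0.05, so their p-values say nothing about stability. The intronic share stayed at 100% and the CA-repeat share between 30% and 33.3%. Percentiles of mean level all moved by over 5 points, in 17 of 17 cases downward, when genes were limited to a mean of at least 10 or set per exonic kb. The limit of 10 removes only genes below the member, so under that setting a percentile can only fall. Depth limits the sites: 5 of the 12 had at most 5 reads in any library.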

Other observations

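The Hmga2 locus also carried IGF2BP3 peaks on its other strand. They were assigned to 1700006J14Rik, a gene that lies antisense within it, which was chosen after its values were seen. There were 7 filtered peaks over 3 of 4 CD11b+ libraries and 0 over 6 Lin- libraries. In CD11b+ replicate 1 a peak of 18 reads lay at chr10:120371722-120371786 and one of 10 reads at chr10:120378138-120378187, with peaks over the same places in replicate 2 (15 and 7 reads) and technical replicate 3 (23 and 25 reads). Technical replicate 3 had a further peak of 8 reads at chr10:120380165-120380193. The authors' mean normalized count of 1700006J14Rik was 34.6 in Lin- and 3018 in CD11b+ cells, and Hmga2 on the sense strand had 612 and 73.1.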
